A study of Oryza sativa with 20 samples.

Results

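Rice transcripts were followed on 20 Affymetrix arrays from before pollination to the first hours after it, and 58 of 57194 probe sets (0.101%) rose in the stigma within 5 min while rising little or not at all in the ovary. Members were chosen on the measured values themselves: on log2 values with a floor of 0.128, the mean of the stigma 5 min after pollination had to lie at least 2.5 above that of the unpollinated stigma (5.66-fold), and the mean of the ovary 5 min after pollination at most 0.5 above that of the unpollinated ovary (1.41-fold). Because these values chose the members, they are given below as a description, with no test. The 58 probe sets stand for 47 genes, with 8 probe sets that have no gene in the annotation, 2 probe sets for RAB21 and 3 for LOC4338151. Of the genes, 12 carry a name and the others have locus numbers alone.

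The groups are stigma 5 min after pollination (n = 2), unpollinated stigma (n = 3), ovary 5 min after pollination (n = 3), unpollinated ovary (n = 3), and whole pistils with stigma and ovary joined (n = 3 per stage). The pistil stages are pollen tube growth (15 to 25 min), fertilization (40 to 50 min, counted like the others from pollination) and zygote formation (5 to 7 h), as the labels call them. All were Oryza sativa flowers from paddy fields, and the cultivar and plant age are not given in the sources used here. Per the labels, every sample taken after pollination still held the pollen that had landed on it. A higher value there can therefore come from pollen, pollen tube or pistil RNA, and in these bulk samples fewer cells of a type and less RNA per cell cannot be told apart. Replicates are called biological without saying whether they came from separate plants, and p-values therefore describe the spread among the arrays at hand, which may be partly technical. Each array's 75th percentile was set to a relative intensity of 1, its median lay between 0.195 and 0.377, and the small number of arrays limits the precision.

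The stigma of rice is a feathery, dry receptive surface on top of the ovary. A pollen grain that lands on it takes up water, germinates and sends a tube through the stigma towards the ovule, and in rice this begins within minutes. The female tissue supplies water, ions and sugars to the grain, and the cell walls along the path are remodelled as the tube passes. Mature pollen is a dry cell stocked with stored transcripts, among them those of proteins that protect against water loss, such as dehydrins.

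The set rests on changes in group means set against thresholds, and not on the level. By group means, most members were higher in the unpollinated ovary than in the unpollinated stigma. The unpollinated ovary lay above the unpollinated stigma for 49 of 58 members, by at least 2-fold for 35 (60.3%), with a median difference of 2.61-fold. Among the 608 other probe sets that rose as much in the stigma but more than 1.41-fold in the ovary, 9.70% showed such a difference. Across the 35470 probe sets bright enough to be tested the share was 6.50%. For the count of 49 no such share is given here. Array by array the difference was less clear. All 3 unpollinated ovary arrays lay above all 3 unpollinated stigma arrays for 23 of the 58 members, where 14.6% of tested probe sets did so. The rule uses both unpollinated groups, so this contrast is a description. For 13 members the mean of the ovary groups lay within 2-fold of the pollinated stigma or above it, and for 8 members both ovary groups lay within 2-fold of the floor.

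**Figure D1:**
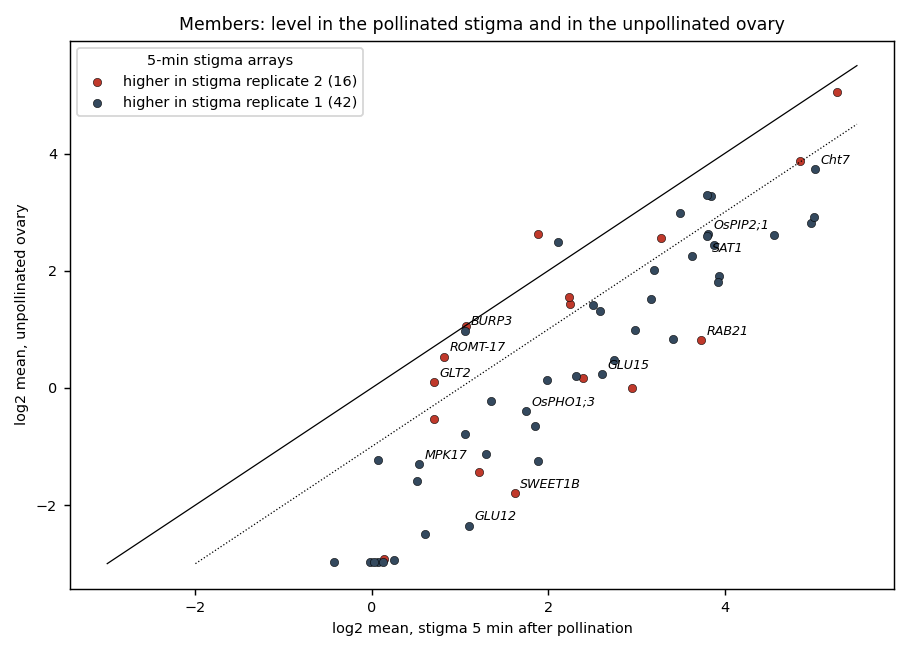
Each point is a member probe set, with its log2 mean in the stigma 5 min after pollination on the x axis and its log2 mean in the unpollinated ovary on the y axis; the solid line marks equal levels, the dotted line an ovary level 2-fold lower, and red points were higher in replicate 2 of the pollinated stigma (16 members). The points form a band below the solid line, with a few members on or above it and a small group at the floor of the ovary axis.

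Replicates differed, and not all members rest equally on every array. Both pollinated stigma arrays lay above all 3 unpollinated stigma arrays for 57 of 58 members, where 15.1% of all tested probe sets did so, a separation that the choice of members favours. The 3 unpollinated stigma arrays spanned more than 4-fold for 21 members, and replicate 2 was the lowest of them for 36 members while replicate 3 was the highest for 40. Shares over all tested probe sets are not given here, so this order cannot be read as a trait of the members. With each of the 11 stigma and ovary arrays left out in turn, 14 members, standing for 11 genes and 3 unnamed probe sets, met the rule every time. None of the 12 named genes is among those 14. Leaving out replicate 1 of the pollinated stigma ended the rule for 23 members, replicate 2 of the unpollinated stigma for 20, and replicate 2 of the unpollinated ovary for 13.

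Replicate 2 of the pollinated stigma also read higher than replicate 1 for 3 ovule and nucellus transcripts that were higher in the ovary than in the stigma. MADS29, a regulator of nucellus degeneration in the ovule, read 0.134 and 1.27 in pollinated stigma replicates 1 and 2, against 0.152, 0.157 and 0.123 in unpollinated stigmas. MADS21, a gene of ovule identity, read 0.256 and 0.964 in the same pollinated arrays and 0.304, 0.142 and 0.227 in unpollinated stigmas. MADS13, which specifies the ovule, read 0.972 and 3.66 in pollinated stigmas and 2.11, 1.62 and 1.13 in unpollinated stigmas. In all 3 cases replicate 1 lay within or near the range of the unpollinated arrays and replicate 2 above it. All ovary arrays were higher still, for MADS13 between 13.1 and 18.9, while for MADS29 the lowest, in the pollinated ovary, was 1.88. The summed level of the 5 carpel and ovule markers went the other way, at 57.5 to 64.0 in pollinated stigmas and 83.2 to 99.8 in unpollinated stigmas, since MADS58 and DL make up most of it. The 2 nucellus and endosperm markers summed to 0.428 to 1.65 in pollinated stigmas, against 0.437 to 0.477 in unpollinated stigmas. Not all listed markers were higher in replicate 2 of the pollinated stigma. In replicates 1 and 2 MADS58 read 47.1 and 38.6 and DL 11.5 and 8.69, while MADS3 read 4.26 and 5.52 and NF-YB1 0.294 and 0.380.

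Members whose ovary level was close to that of the pollinated stigma were more often higher in replicate 2. This held for 8 of the 13 near-level members and for 8 of the other 45. The 13 include the 3 probe sets of LOC4338151, all higher in replicate 1. The split uses the stigma and ovary values that chose the members, so it is a description. The share of all tested probe sets higher in replicate 2 is not given here. With replicate 1 alone 50 of the 58 members still met the rule, and replicate 1 alone exceeded the unpollinated ovary mean for 54 members. The 8 members that did not meet it with replicate 1 alone are LOC4352571, LOC4330275, LOC4346051, LOC4335798, ROMT-17, GLT2 and 2 probe sets without a gene.

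A pollen transcript was higher on every pollinated array of both tissues. EXPB9, a pollen allergen beta-expansin, read 66.0 and 62.5 in pollinated stigmas, against 3.83, 4.38 and 2.35 in unpollinated stigmas. In the ovary it read 9.13, 19.5 and 8.12 after pollination and 0.180, 0.328 and 0.487 before it. Only EXPB9 and EXPB10 of 9 pollen markers could be matched to a probe set, and they summed to 63.5 to 67.9 in pollinated stigmas, against 2.80 to 4.93 in unpollinated stigmas. Marker sums of tapetum and anther wall (7 genes) were 19.3 to 20.8 in pollinated and 6.40 to 11.4 in unpollinated stigmas. Most of that came from 1 of 2 genes matched to the symbol CP1. It read 15.5 and 17.1 in pollinated stigmas and the other 0.230 and 0.462. Which of them is the tapetal gene is not known here. Marker sums of stamen and lodicule (4 genes, with 2 matched to MADS2) were 73.1 to 101 in pollinated and 125 to 135 in unpollinated stigmas. In the ovary they were 35.7 to 40.4 after pollination and 34.3 to 68.9 before it, so the unpollinated ovary arrays were uneven. In unpollinated ovary replicates 1, 2 and 3 MADS16 read 17.2, 7.55 and 28.4, and the brighter MADS2 gene 24.3, 14.0 and 23.4. The part of such RNA in the members' ovary values was not tested. The part that pollen or ovary RNA has in the members' rises was not tested.

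**Figure D2:**
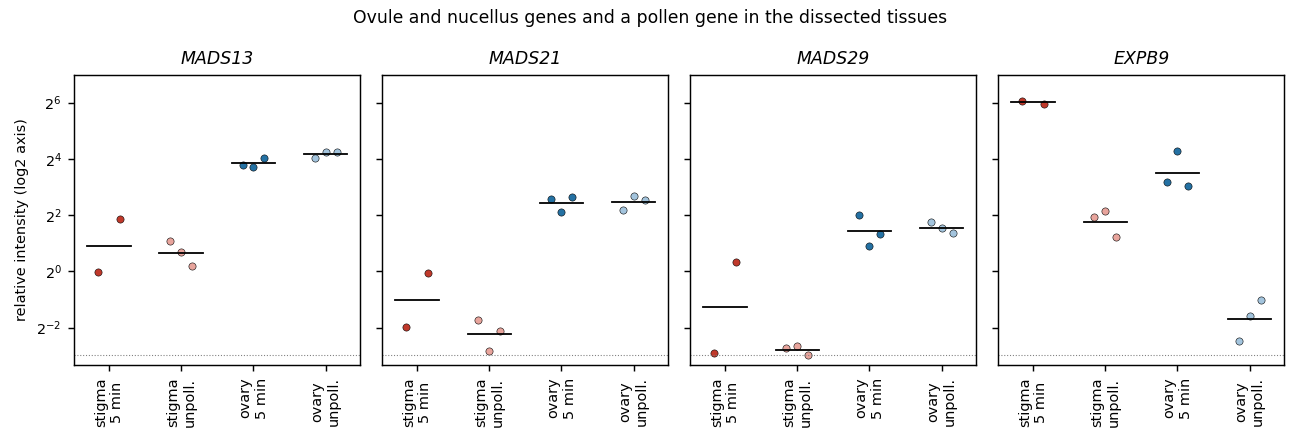
Relative intensity (log2 axis) of the ovule and nucellus genes MADS13, MADS21 and MADS29 and of the pollen gene EXPB9 in the dissected tissues; each point is an array, the bar is the geometric mean and the dotted line the floor. Replicate 2 of the pollinated stigma lies above replicate 1 for the 3 ovule and nucellus genes, while both arrays agree for EXPB9.

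The thresholds cut through a continuous range of values. Among members the smallest stigma changes were 2.51 and 2.53 (log2), and the nearest probe sets outside, LOC4352582 and LOC9270659, had 2.48 and 2.47. In the ovary the largest changes inside were 0.49 for RAB21 and 0.49 for LOC4351977, and those just outside were 0.51 and 0.52. Ovary changes of members ran from -1.28 to 0.49 with a median of 0.22, and 27 of the 58 lay at 0.25 or more. Their standard errors ran from 0.19 to 1.33 with a median of 0.37, which is of the order of the threshold itself.

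RAB21, a dehydrin induced by abscisic acid and water deficit, changed most. It read 7.85 and 22.6 in pollinated stigmas, against 0.227, 0.253 and 0.267 in unpollinated stigmas, a log2 difference of 5.75 (SE 0.68, 53.6-fold). In the ovary the 3 pollinated arrays read 2.37, 2.14 and 1.97, between the 1.08, 4.43 and 1.12 of the unpollinated ovary. A low and even stigma thus stood beside an ovary that already held the transcript at 7.05 times the level of the unpollinated stigma. Pistils read 4.37, 1.11 and 1.73 at 15 to 25 min, 6.39, 1.01 and 1.91 at 40 to 50 min and 0.256, 0.290 and 0.289 at 5 to 7 h. The second RAB21 probe set gave 5.32 (log2) in the stigma and 0.49 in the ovary. Without replicate 2 of the unpollinated ovary neither probe set met the rule, and the second also failed it without replicate 2 of the pollinated ovary.

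OsPIP2;1 encodes a plasma membrane aquaporin, a water channel. Pollinated stigmas read 22.7 and 8.71 and unpollinated stigmas 3.73, 0.147 and 14.4. It is the 1 member whose stigma arrays overlapped, and its log2 difference of 2.82 had an SE of 1.32. Without replicate 1 of the pollinated stigma the change was 2.13. The ovary read 4.65, 6.49 and 2.88 after pollination, against 23.7, 9.92 and 0.992 before it. Of these genes for water, RAB21 had stigma arrays that did not overlap and OsPIP2;1 had arrays that did. The same arrays chose both members, so this is a description.

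SWEET1B, of the SWEET family of sugar transporters, was even in the pollinated stigma, at 3.04 and 3.10, against 0.207, 0.226 and 0.393 in unpollinated stigmas. That is a log2 difference of 3.54 (SE 0.42, 11.6-fold). Its ovary levels were near those of the unpollinated stigma, with 0.525, 0.388 and 0.281 after pollination and 0.249, 0.173 and 0.556 before it. The ovary groups overlapped, and without replicate 3 of the unpollinated ovary the ovary change was 0.89 (log2) and the gene no longer met the rule. OsPHO1;3, of the PHO1 family of phosphate transporters, read 3.96 and 2.86 in pollinated stigmas, against 0.503, 0.238 and 1.10 in unpollinated stigmas (log2 2.72, SE 0.41). In the ovary it read 0.837, 0.816 and 0.498 after pollination and 0.686, 0.908 and 0.699 before it, which overlap.

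Both named wall enzymes are endo-1,4-beta-glucanases, which cut cellulose-like glucan chains in the wall. GLU12 read 2.49 and 1.86 in pollinated stigmas, against 0.200, 0.138 and 0.405 in unpollinated stigmas (log2 3.26, SE 0.39, 9.61-fold). The ovary stayed low, with 0.217, 0.394 and 0.239 after pollination and 0.190, 0.204 and 0.193 before it. Those 3 pollinated ovary arrays all lay above the 3 unpollinated ones, so GLU12 is a case where a small ovary rise of 0.48 (log2, SE 0.35) lay just under the threshold.

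GLU15 behaved otherwise. Pollinated stigmas read 8.65 and 4.32 and unpollinated stigmas 0.199, 0.356 and 0.293, a log2 difference of 4.47 (SE 1.01). The pollinated ovary read 1.68, 1.49 and 1.36, and the unpollinated ovary 0.207, 0.644 and 12.3. Its place among the members rests on that last array: without it the ovary change was 2.04 (log2). The probe set of GLU15 carries a suffix (x) for probes that may also bind other transcripts, as does that of SAT1.

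BURP3, named for the plant-specific BURP domain, read 2.73 and 1.58 in pollinated stigmas, against 0.340, 0.239 and 0.361 in unpollinated stigmas (log2 2.75, SE 0.27). The ovary matched or passed the pollinated stigma, at 2.23, 2.28 and 3.11 after pollination and 2.34, 2.21 and 1.46 before it. Here the pollinated stigma reached a level that the ovary had from the start.

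Cht7, a chitinase and so an enzyme of defence, varied more between unpollinated samples than with pollination. It read 39.0 and 27.1 in pollinated stigmas, against 4.14, 21.1 and 0.415 in unpollinated stigmas. The ovary read 16.9, 9.16 and 24.2 after pollination and 0.814, 20.1 and 144 before it. Its log2 difference in the stigma was 3.30 with an SE of 1.48, and without replicate 3 of the unpollinated ovary the ovary change was 1.94.

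Genes of metabolism and signalling complete the named members. SAT1, a serine acetyltransferase that makes the precursor of cysteine, read 15.6 and 12.5 in pollinated stigmas, against 4.32, 0.928 and 2.58 in unpollinated stigmas (log2 2.67, SE 0.45). GLT2, an NADH-dependent glutamate synthase that assimilates ammonium, read 1.47 and 1.80 in pollinated stigmas, against 0.149, 0.334 and 0.398 in unpollinated stigmas (log2 2.59, SE 0.39). MPK17, a mitogen-activated protein kinase, read 1.80 and 1.16 in pollinated stigmas, against 0.261, 0.258 and 0.207 in unpollinated stigmas (log2 2.59, SE 0.33). For all 3 genes the stigma arrays did not overlap, a separation that the choice of members favours. Among the stigma arrays, SAT1 lost the rule without replicate 2 of the unpollinated stigma. GLT2 lost it without replicate 2 of the pollinated or replicate 1 of the unpollinated stigma. MPK17 lost it without replicate 1 of the pollinated or replicate 3 of the unpollinated stigma.

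ROMT-17, an O-methyltransferase gene, depended on which pollinated array was read. Its pollinated stigmas read 1.06 and 2.94, against 0.357, 0.260 and 0.259 in unpollinated stigmas, and without replicate 2 the change was 1.88 (log2). Its ovary read 2.57, 1.95 and 1.17 after pollination and 3.60, 1.02 and 0.828 before it, a span that covers the pollinated stigma. SAT1 read 6.69, 9.79 and 7.33 in the pollinated ovary and 7.54, 8.18 and 3.57 in the unpollinated ovary, all below its pollinated stigma arrays. GLT2 read 0.752, 0.583 and 0.601 in the pollinated ovary and 0.966, 0.650 and 1.95 in the unpollinated ovary. MPK17 read 0.347, 0.529 and 0.319 after pollination and 0.357, 0.335 and 0.552 before it, low in both.

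**Figure D3:**
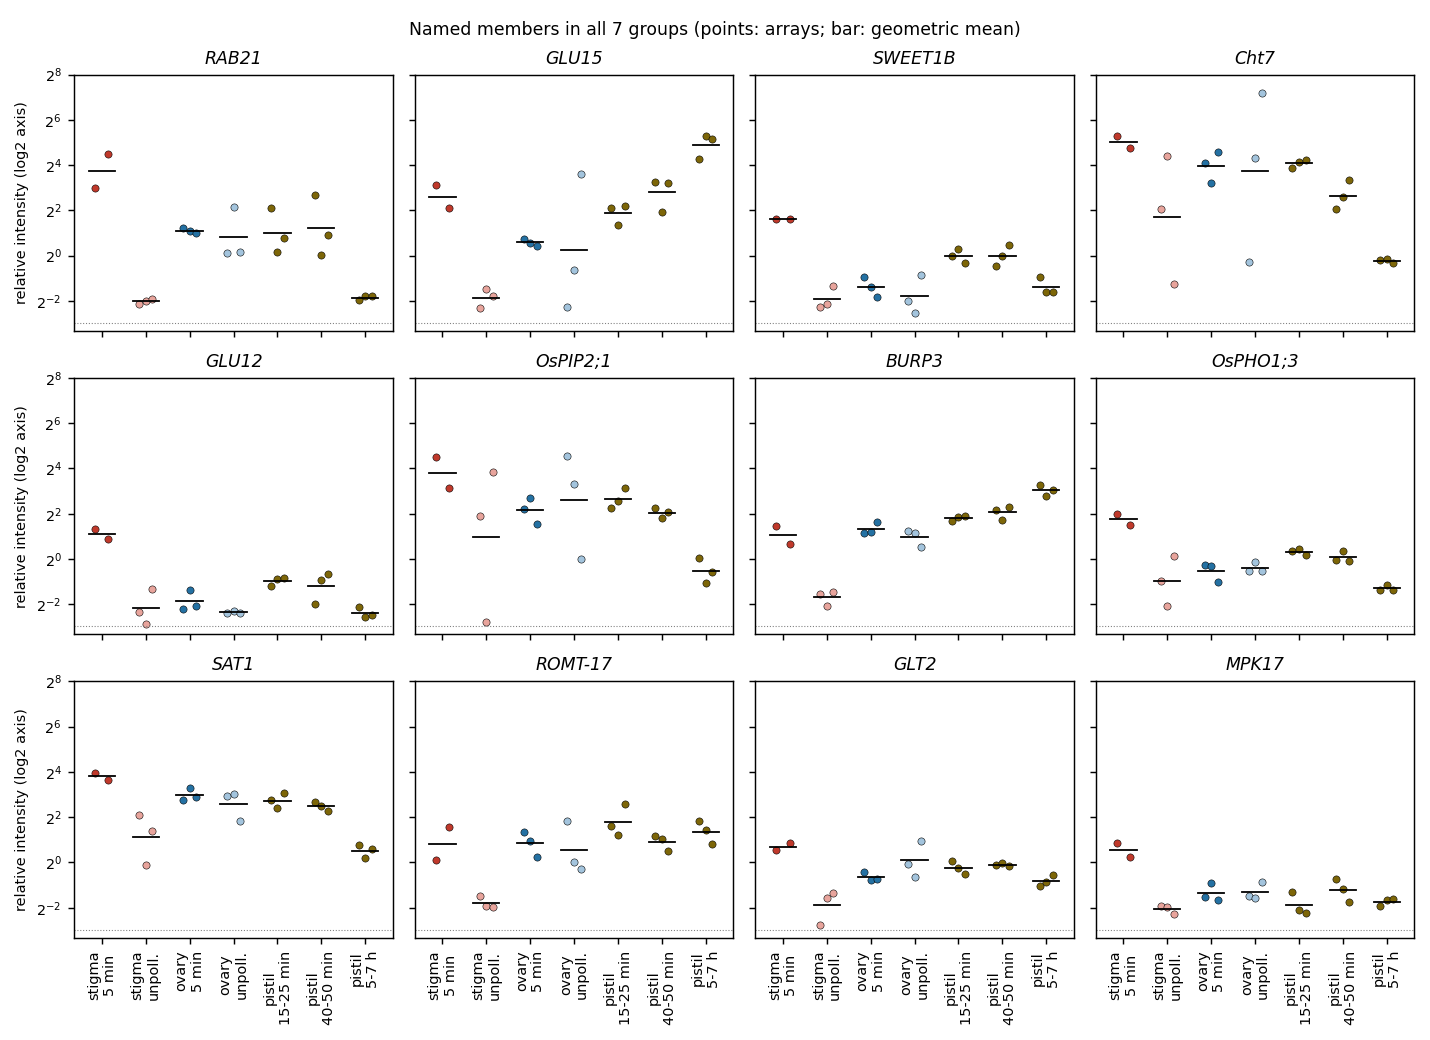
Relative intensity (log2 axis) of the 12 named members in all 7 groups; each point is an array, the bar is the geometric mean, the dotted line is the floor, and RAB21 is shown by the first of its 2 probe sets. RAB21 is low and even in unpollinated stigmas, OsPIP2;1 and Cht7 scatter widely there, and GLU15 and BURP3 are highest in pistils at 5 to 7 h.

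The 14 members that held their place whichever array was left out have a locus number or no gene at all, and the ones described here were picked after their values were seen. LOC4324704 read 15.5 and 9.90 in pollinated stigmas, against 0.428, 0.428 and 1.23 in unpollinated stigmas, 20.3-fold. Its ovary read 5.01, 4.10 and 3.28 after pollination and 3.68, 7.11 and 4.05 before it. LOC4325366 was 15.5-fold and LOC4344351 14.8-fold higher in pollinated stigmas, and LOC4327905, with an ovary change of 0.00 (log2), was 11.1-fold higher. All 4 had an unpollinated ovary above the unpollinated stigma and ovary arrays that overlapped between the groups.

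Others of the 14 were at or near the floor in the unpollinated stigma and in both ovary groups. LOC4338179 read 1.42 and 0.781 in pollinated stigmas, against 0.118, 0.138 and 0.0896 in unpollinated stigmas, so that it was at least 8.04-fold higher with 2 of 3 unpollinated arrays at the floor. All 3 unpollinated ovary arrays lay at the floor too, and the pollinated ovary read 0.135, 0.162 and 0.120. LOC4329813, with 2 of 3 unpollinated stigma arrays under the floor, was at least 8.91-fold higher. LOC4325724 read 1.22 and 0.983 in pollinated stigmas and 0.141, 0.0830 and 0.179 in unpollinated stigmas, and its unpollinated ovary arrays were all at the floor. In pistils LOC4325724 was above all its unpollinated arrays, with 0.311, 0.461 and 0.381 at 15 to 25 min, 0.290, 0.374 and 0.478 at 40 to 50 min and 0.512, 0.336 and 0.285 at 5 to 7 h. LOC4329813 read 0.375, 0.257 and 0.301 in pistils at 15 to 25 min, also above its unpollinated arrays.

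For some members the size of the ovary change or of the stigma change depends much on 1 array. LOC4325689 read 23.7 and 23.4 in pollinated stigmas, against 1.58, 0.659 and 4.07 in unpollinated stigmas (14.6-fold), and 3.17, 3.66 and 2.10 in the pollinated ovary, against 3.72, 3.03 and 20.0 in the unpollinated ovary. The ovary arrays overlap, and the high last value sets most of its ovary change of -1.07 (log2). Without that array the change was -0.21, and LOC4325689 met the rule whichever array was left out. LOC4352571 shows the reverse kind of dependence, at 1.12 and 12.0 in pollinated stigmas and 0.274, 0.231 and 0.164 in unpollinated stigmas, with the ovary between 4.53 and 11.9 throughout. Its rise without replicate 2 of the pollinated stigma was 2.37 (log2), under the threshold. LOC4352571 also lost the rule without replicate 1 or 2 of the pollinated ovary or replicate 2 of the unpollinated ovary.

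**Figure D4:**
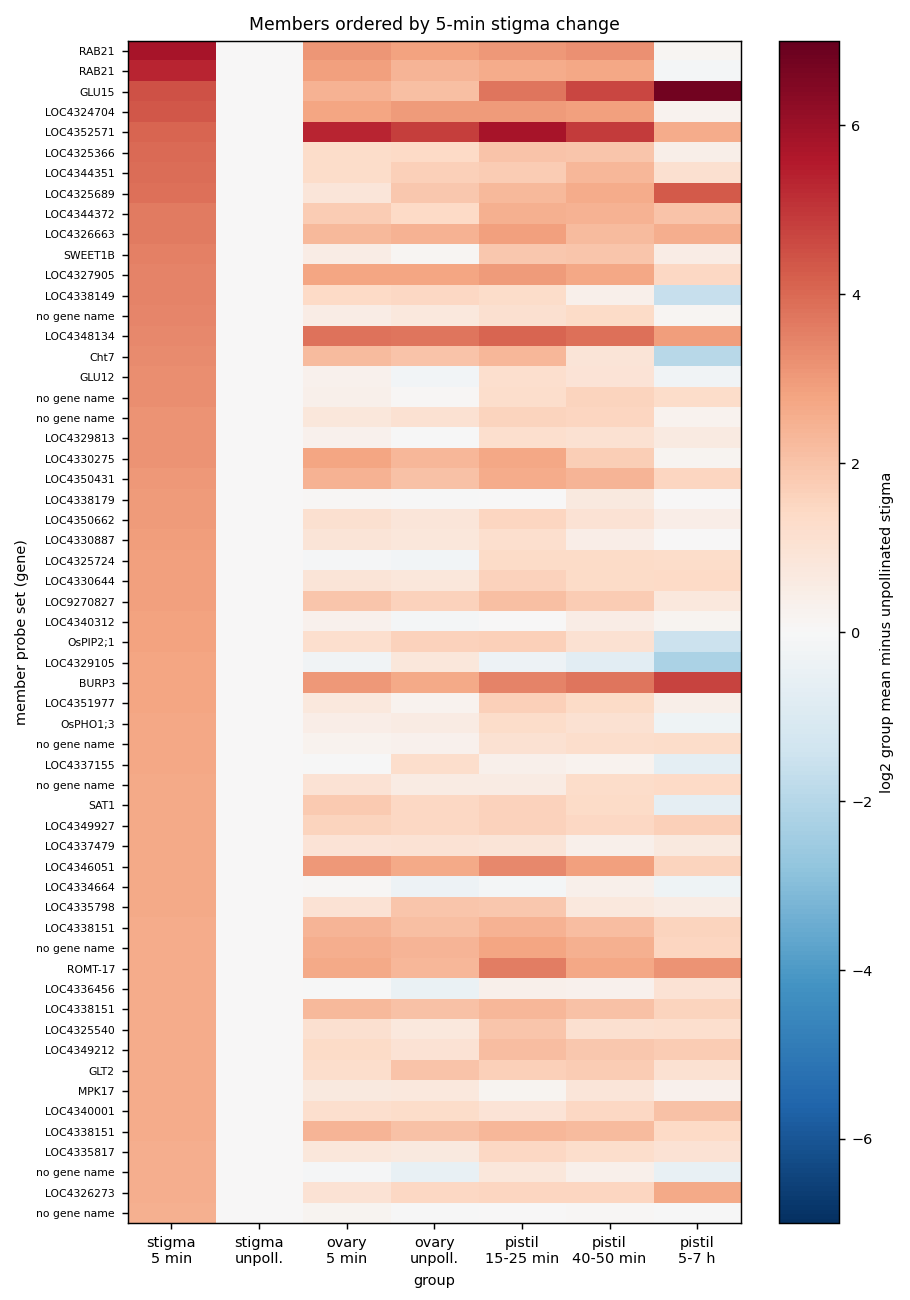
Log2 group mean of each of the 58 member probe sets relative to its unpollinated stigma mean, by group (columns) and ordered by the 5-min stigma change (rows). The pollinated stigma is the darkest column for most rows, the ovary columns are pale red for most members, and the 5 to 7 h column holds both the deepest red (GLU15) and most of the blue.

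Pistil groups took no part in choosing the members, but the rule favours a high pollinated stigma, so its rank among the groups is a description. It was the highest of the 7 groups for 49 members, pistils at 15 to 25 min were highest for 5 and pistils at 5 to 7 h for 4. Shares over all tested probe sets are not given here for these ranks. All 3 arrays at 15 to 25 min lay below both pollinated stigma arrays for 42 members, where 34.6% of tested probe sets did so. At 40 to 50 min this held for 49 members (37.7% of tested probe sets) and at 5 to 7 h for 51 (45.4%), a separation that the choice of members favours. Whole pistils hold ovary as well as stigma, and the part of this mixing in their levels was not tested. All 3 arrays at 15 to 25 min lay above all unpollinated stigma arrays for 38 members (14.2% of tested probe sets), and above all unpollinated arrays of both tissues for 13 (5.62%). At 40 to 50 min these counts were 37 (12.3%) and 10 (3.7%), and at 5 to 7 h 28 (21.1%) and 12 (12.3%). These comparisons share the unpollinated arrays with the rule, which favours members low in the stigma, and are not tested here.

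Between the pistil stages, which share no array with the rule, the members that moved mostly fell at the last stage. From limma fits with Benjamini-Hochberg adjustment over all 35470 tested probe sets, 23 of 58 members were lower at 5 to 7 h than at 15 to 25 min and 5 were higher, where 10.9% and 14.2% of all tested probe sets were lower and higher. These are counts of probe sets and not of genes: the 23 include both probe sets of RAB21 and all 3 of LOC4338151. The median member changed by -0.89 (log2), against -0.05 for all tested probe sets and -0.38 for the 608 other early rises, of which 195 (32.1%) were lower and 34 (5.59%) higher. Whether the members differ from those other early rises was not tested. All 58 members passed the filter on dim probe sets, 56 of them even without the pollinated stigma arrays.

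Against 40 to 50 min, 16 members were lower and 2 higher at 5 to 7 h, where 6.79% and 11.2% of tested probe sets were lower and higher. These fits take 1 spread per probe set from all 7 groups, the stigma and ovary arrays included. In a fit of the pistil groups alone 30 were lower and 4 higher against 40 to 50 min. Between 40 to 50 min and 15 to 25 min limma called 0 members and 0 of all probe sets (0% in each direction). At an unadjusted p under 0.05 it gave 3 members higher and 1 lower, and 451 and 582 of all tested probe sets.

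At 5 to 7 h the arrays of RAB21 lay below all of those at 15 to 25 min, by -2.87 (log2, SE 0.61, adjusted p = 0.00204 from limma), and its second probe set changed by -2.74 (adjusted p = 0.00189). SAT1 read 1.71, 1.13 and 1.51 at 5 to 7 h, against 6.82, 5.22 and 8.30 at 15 to 25 min, a change of -2.22 (SE 0.41, adjusted p = 0.000604 from limma). OsPHO1;3 read 0.389, 0.450 and 0.387 at 5 to 7 h and 1.27, 1.37 and 1.14 at 15 to 25 min (-1.63, SE 0.36, adjusted p = 0.00294 from limma). Dehydrin, cysteine precursor and phosphate transporter genes thus ended below their level at the tube growth stage, with no overlap of arrays.

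SWEET1B read 0.517, 0.324 and 0.326 at 5 to 7 h and 1.0, 1.22 and 0.793 at 15 to 25 min (-1.38, SE 0.37, adjusted p = 0.0106 from limma). GLU12 read 0.232, 0.170 and 0.178 at 5 to 7 h, against 0.436, 0.546 and 0.552 at 15 to 25 min (-1.41, SE 0.35, adjusted p = 0.00645 from limma). At 5 to 7 h GLU12 lay within the range of its unpollinated stigma arrays and SWEET1B near it. Cht7 fell to 0.870, 0.898 and 0.790 at 5 to 7 h, against 14.6, 17.4 and 18.9 at 15 to 25 min (-4.31, SE 1.33, adjusted p = 0.0228 from limma). Its arrays at both stages were close together, while those of unpollinated tissues spanned a wide range. Its call ended, at adjusted p between 0.0508 and 0.0642, without any 1 of the 3 arrays of either stage, and at 0.068 with no filter on dim probe sets.

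OsPIP2;1 did not pass, although its arrays were apart, at 1.04, 0.479 and 0.665 at 5 to 7 h and 4.77, 5.89 and 8.77 at 15 to 25 min (-3.18, SE 1.18, adjusted p = 0.0579 from limma). It passed in the fit of the pistil groups alone (adjusted p = 1.37e-05), with array weights (0.00208) and with a higher floor (0.0487). GLT2, ROMT-17 and MPK17 did not pass either, at -0.59, -0.44 and 0.15 (log2). For these 3 genes adjusted p was 0.248, 0.582 and 0.768 in the limma fit, and GLT2 passed in the fit of the pistil groups alone (adjusted p = 0.0248).

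GLU15 and BURP3 rose instead. GLU15 read 19.2, 38.7 and 35.6 at 5 to 7 h, against 4.36, 2.59 and 4.51 at 15 to 25 min, 8.03-fold higher (log2 3.01, SE 0.91, adjusted p = 0.0203 from limma). That call was lost without pistil replicate 2 at 15 to 25 min (adjusted p = 0.0728) and without replicate 2 or 3 at 5 to 7 h (0.0688 and 0.066), and with no filter on dim probe sets (0.0609). BURP3 read 9.66, 6.83 and 8.40 at 5 to 7 h, against 3.16, 3.62 and 3.68 at 15 to 25 min, 2.36-fold higher (SE 0.24 on the log2 scale, adjusted p = 0.000981 from limma). The glucanases GLU12 and GLU15 therefore moved in opposite directions between these stages. Of the other 3 rises LOC4325689 changed by 2.06 (log2), LOC4340001 by 1.10 and a probe set without a gene by 0.87.

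**Figure D5:**
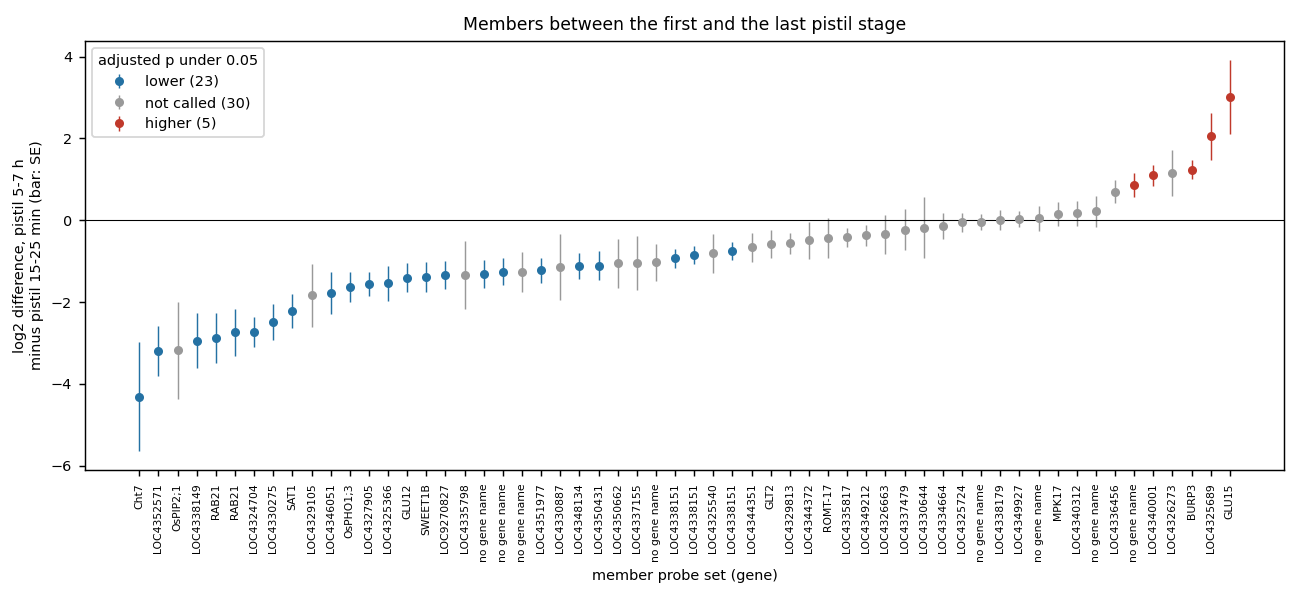
Log2 difference of each member between pistils at 5 to 7 h and pistils at 15 to 25 min, in order of size, with standard errors as bars; blue and red mark adjusted p under 0.05. Calls to the left of the grey middle (23 members) outnumber those to the right (5), and the widest bars belong to Cht7 and OsPIP2;1.

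Gene lists put some of these members among their relatives. Cell wall enzymes and expansins included GLU12 and GLU15 (of 114 genes on the array), and water and sugar transport OsPIP2;1 and SWEET1B (of 51). Abscisic acid and dehydrins included RAB21 (of 96), defence proteins Cht7 (of 60) and kinases and receptors MPK17 (of 25). The rest of the 12 named genes were on none of the lists. Among them is the phosphate transporter gene, which the list of ion and metal transport does not hold. No gene of the other 12 lists met the rule, among them calcium signalling with 87 genes, auxin with 60, jasmonate with 40, heat shock with 57 and WRKY, NAC and MYB factors with 25. Since 0.101% of all probe sets met the rule, a count of 0 or 1 in lists of these sizes is near the background and says nothing about the lists.

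Within those lists the last pistil stage was compared with the stage at 15 to 25 min, with limma and 1 probe set per gene, beside 10.9% lower and 14.2% higher over all tested probe sets. Of 93 abscisic acid and dehydrin genes 33 were lower and 6 higher at 5 to 7 h, with a median of -0.40 (log2), and of 43 water and sugar transporters 15 were lower and 5 higher (median -0.55). Defence proteins had 14 of 58 lower and 9 higher, with a median of -0.29. Cell wall enzymes split evenly, with 15 of 95 lower and 13 higher and a median of -0.05, as GLU12 and GLU15 do. Of 25 kinases and receptors 6 were lower and 2 higher (median -0.01). Over all tested probe sets the median was -0.05.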

How the data were processed

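The authors' deposited values are linear relative intensities, 1 array per sample, scaled so that each array's 75th percentile is 1, with a minimum of 0.01. The submitters' processing notes name GCOS 1.3, without saying which program scaled the arrays. The labels give 500 ng of RNA as the input. From 57381 probe sets, 187 controls were dropped. A floor of 0.128 (20th percentile of all values) was applied before log2. The 35470 probe sets that exceeded an array's median on 2 or more arrays were tested by limma 3.58.1 in R 4.3.3, with 7 group means over all 20 arrays, 13 residual degrees of freedom, variances with a trend on the mean, and Benjamini-Hochberg adjustment within each comparison (called under 0.05). Standard errors are from that fit, and folds are ratios of geometric means. Within groups the lowest correlation between arrays was r = 0.937, and 0 pairs held identical values. The procedure was tested on simulated data.

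The annotation table pairs 22436 probe sets with 1 gene, and names came from current synonyms. The members, lists and tests were chosen with earlier results of these data known. Named genes are members with a gene name other than a locus number, all 12 of them described; other members are given by locus number where a result turns on them. No genome was used, and promoter motifs and sequences are not analysed here. Alternatives were other scalings, filters, floors and variance models, the replicate number as a block, and each array left out in turn.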

Additional observations from a re-analysis of the deposited data

Results flagged for a closer look

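LOC4337155 was picked out because every array moved in opposite ways in the tissues. It read 18.6 and 11.6 in pollinated stigmas, against 3.10, 0.501 and 7.59 in unpollinated stigmas, and 1.74, 3.25 and 1.97 in the pollinated ovary, against 4.44, 3.50 and 10.3 in the unpollinated ovary. The ovary change was -1.28 (log2), and the stigma change 2.69. Without replicate 3 of the unpollinated ovary the ovary change was -0.82. Without replicate 1 of the pollinated stigma the stigma change was 2.35, under the threshold. LOC4337155 also lost the rule without replicate 2 of the unpollinated stigma. The difference between the tissues was not tested, since the rule that chose the members used the same arrays.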

How the results depend on the processing

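The number of probe sets that meet the rule, 58, was between 48 and 81 under other scalings and floors, and between 42 and 93 with 1 array left out (90 without replicate 2 of the pollinated stigma, 93 without replicate 3 of the unpollinated stigma, which share 50 and 52 members with the 58). Of members lower at 5 to 7 h than at 40 to 50 min (16), 9 remained in number with no filter, 30 were counted with array weights and 30 with only the pistil groups fitted, and 7 to 14 with 1 array left out. Members higher in that comparison (2) numbered 1 with quantile normalization, with scaling on bright probe sets and with no filter, 5 with array weights, 4 with only the pistil groups, and 1 to 2 with 1 array left out. Against 15 to 25 min, members higher at 5 to 7 h (5) numbered 3 with no filter and 3 to 6 with 1 array left out, and members lower (23) 18 to 23. In that comparison 31 were lower and 7 higher with array weights, and 32 and 6 with only the pistil groups. Why these counts move was not tested, except that no filter adds probe sets to the adjustment. Median centring shifted all probe sets by 0.13 and 0.12 (log2) at 5 to 7 h against 40 to 50 min and 15 to 25 min, and left 11 and 20 members lower.

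Of 16 calls for named members, 11 held under every alternative and 5 were lost in at least 1: Cht7 and GLU15 against 15 to 25 min, and GLU12, SWEET1B and OsPHO1;3 against 40 to 50 min. No call changed sign. Differences without a call that changed sign with 1 array left out were, for 40 to 50 min against 15 to 25 min, RAB21 (-0.55 to 0.78, second probe set -0.56 to 0.69), SWEET1B (-0.23 to 0.25), GLT2 (-0.0086 to 0.27) and GLU12 (-0.48 to 0.17), and for 5 to 7 h against 15 to 25 min MPK17 (-0.0161 to 0.44). With the replicate number as a block, 18 members were lower and 2 higher against 40 to 50 min, and 23 and 5 against 15 to 25 min, and no named call changed. Deviations of same-numbered pistil arrays correlated between -0.15 and 0.37, and 4 of 9 arrays correlated best with their own number, so the numbers were not taken to pair samples. Promoter motifs, planned at first, were not run.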

Other observations

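A pair of members are near neighbours in the current reference annotation of rice: LOC4338149 and LOC4338151 have 1 gene between them. LOC4338149 read 22.0 and 10.7 in pollinated stigmas, against 1.39, 0.321 and 6.05 in unpollinated stigmas. It lost the rule without replicate 2 of the unpollinated stigma. At 5 to 7 h it read 0.462, 0.335 and 0.579, against 2.97, 3.43 and 4.0 at 15 to 25 min. LOC4338151 is measured by 3 probe sets, whose stigma changes were 2.62, 2.61 and 2.58 (log2) and whose ovary changes were 0.25, 0.22 and 0.33. Without replicate 1 of the pollinated stigma the stigma changes were 2.49, 2.42 and 2.36, under the threshold. All 3 also lost the rule without replicate 1 of the unpollinated stigma. The 3 probe sets of LOC4338151 were all lower at 5 to 7 h than at 15 to 25 min, by -0.85, -0.76 and -0.93 (log2). SAT1 and LOC4324704, which have 2 genes between them, were both lower at 5 to 7 h as well, by -2.22 and -2.74. Whether neighbours share a pattern beyond chance was not tested.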
